A study of Mus musculus with 4 samples.

Results

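The genes described here form the INK4-ARF, D cyclin and RB axis, which controls the entry of cells into S phase. They are 10 genes, taken by name from the 54842 genes of the count table: the inhibitors Cdkn2a, Cdkn2b and Cdkn2c, the D cyclins Ccnd1, Ccnd2 and Ccnd3, the kinases Cdk4 and Cdk6, and the pocket protein genes Rb1 and Rbl1. All 10 were among the 25085 genes with enough counts to be tested. Mouse embryonic fibroblasts (MEF cells) of 2 genotypes, both untreated, were profiled by sequencing of total RNA after removal of ribosomal RNA: 2 libraries of wild-type (wt) cells and 2 libraries of Top2β-null cells, which lack DNA topoisomerase 2β, an enzyme that passes DNA strands through one another. The Top2β-null cells were derived from null mice and were a gift of other laboratories, so the origin of the cells and the genotype cannot be told apart. The sources used here do not state how either line was immortalized, nor whether the replicates were separate cultures, and p-values therefore measure only the spread between these libraries.

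D cyclins bind Cdk4 and Cdk6, and the active kinases phosphorylate the RB protein and its relative p107, the product of Rbl1. The phosphorylated pocket proteins release E2F transcription factors, which then drive genes of DNA synthesis. INK4 proteins block Cdk4 and Cdk6, whereas ARF, made from the same gene as p16Ink4a in another reading frame, holds back MDM2 and so stabilizes p53. In cultured MEF cells, products of this axis accumulate with passage and limit growth, and established lines often have altered ARF or p53.

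Library totals ran from 133116830 to 149647278 counts. Values are given as normalized counts, which are counts scaled to a common library size, and differences as log2 fold changes of Top2β-null over wt from edgeR's quasi-likelihood test, with p-values adjusted by the Benjamini-Hochberg method over 26566 features. A gene is said to rise or fall when its adjusted p is below 0.05, and is called when its absolute log2 fold change is also above 1 and its mean above 100 normalized counts. The targeted gene Top2b on chromosome 14 stood at 18259 and 18465 normalized counts in wt cells and at 3879 and 3789 in Top2β-null cells (log2 fold change -2.26, adjusted p = 6.56e-19), in the direction that the labels give. Fibroblast markers were present in all 4 libraries, with a summed level of 1300500 and 1325240 normalized counts in wt and 885471 and 890875 in Top2β-null cells. Of the 10 fibroblast markers, Lum alone stayed below 4 normalized counts in every library, and the others differed in both directions between the genotypes. Col1a1 (287590 and 298062 against 112275 and 112536 normalized counts), Col1a2, Col3a1, Vim and Fn1 were lower in both Top2β-null libraries, whereas Thy1 (4236 and 4367 against 17779 and 18444), Pdgfra, Pdgfrb and Dcn (226 and 223 against 7051 and 7241) were higher. The 5 leukocyte markers summed to at most 35.7 normalized counts in a library, the 5 epithelial ones to at most 45.4, the 5 muscle ones to at most 281.6, the 5 endothelial ones to at most 262 and the 5 pluripotency ones to at most 64.4. The neural crest and glia list reached 2254.5 in wt and 4683.8 in Top2β-null cells, mostly through Tubb3, and the part of such shifts in the results below was not tested. In bulk RNA, fewer cells of a type and less RNA per cell cannot be told apart.

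Of the 10 genes, 2 were called: Ccnd2 was higher and Rb1 was lower in Top2β-null cells. Over all genes tested, 5.52% were called higher and 5.25% lower, and over the 9813 genes with a mean above 1000 normalized counts, a class that holds all 10, the shares were 5.35% and 6.28%. By the adjusted p alone, 2 of the 10 rose (Ccnd2 and Cdkn2c), 7 fell and only Rbl1 did not pass. Differences of that kind were common at this depth, since 38.9% of the genes above 1000 normalized counts rose and 46.1% fell. The wt and Top2β-null libraries did not overlap for any of the 10 genes, but the same held for 92.8% of the genes above 1000. The median log2 fold change of the 10 genes was -0.31, against -0.01 for all genes tested, and the median absolute value was 0.54, against 0.31 for genes above 1000.

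**Figure D1:**
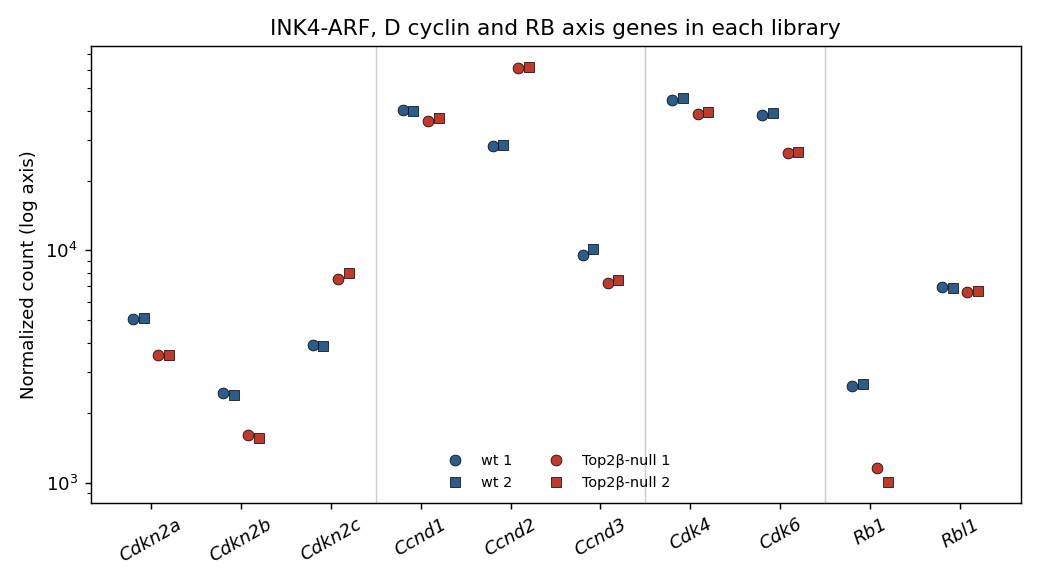
Normalized counts (log axis) of the 10 genes in each of the 4 libraries, wt in blue and Top2β-null in red, with circles for replicate 1 and squares for replicate 2. Ccnd2 and Cdkn2c lie higher in both Top2β-null libraries, Rb1 shows the largest drop, and Rbl1 moves least.

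The INK4-ARF locus was expressed in both genotypes and was lower in Top2β-null cells. Cdkn2a (chr4:89274471-89294653, reverse strand, GRCm38) encodes p16Ink4a and p19Arf. It had 5074 and 5141 normalized counts in wt and 3535 and 3563 in Top2β-null cells. Both Top2β-null libraries lay below both wt libraries by more than the replicates differed, and the level fell 1.44-fold (log2 fold change -0.53, SE 0.032, edgeR adjusted p = 4.26e-10). Cdkn2b (chr4:89306299-89311039, reverse strand), the neighbouring gene for p15Ink4b, had 2432 and 2384 normalized counts in wt and 1601 and 1554 in Top2β-null cells. It fell 1.53-fold (log2 fold change -0.61, SE 0.045, edgeR adjusted p = 5.48e-09), by nearly the same amount as Cdkn2a, and neither gene reached the fold cut-off.

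The counts of Cdkn2a cannot be divided between its 2 products. In GENCODE release M21, the p16Ink4a transcript (Cdkn2a-201) and the p19Arf transcript (Cdkn2a-202) start at different first exons, chr4:89281986-89282192 and chr4:89294334-89294653, and are spliced to the same second exon of 341 bases at chr4:89276645-89276985. The first exons carry 126 and 190 coding bases. The first number is a multiple of 3 and the second leaves a remainder of 1, so that the shared exon is read in different frames, giving 168 and 169 codons. Of the 1172 bases in the exons of the gene, 575 (49.1%) are common to both transcripts. The junctions are shown because they are the part of the sequence that tells the transcripts apart. Each runs over 30 bases of the first exon and the first 30 bases of the second exon, with the shared second exon in capitals.
Cdkn2a-201 (p16Ink4a): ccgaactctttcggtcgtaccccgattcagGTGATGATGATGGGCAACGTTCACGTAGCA
Cdkn2a-202 (p19Arf): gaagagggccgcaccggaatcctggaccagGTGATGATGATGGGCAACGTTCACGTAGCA
A fall of one transcript, of the other or of both would give the same count per gene.

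Cdkn2c, the INK4 gene for p18Ink4c on the same chromosome (chr4:109660876-109667189, reverse strand), went the other way. It had 3910 and 3866 normalized counts in wt and 7562 and 7977 in Top2β-null cells, and the groups were far apart. The gene rose 2.00-fold (SE 0.032 on the log2 scale, edgeR adjusted p = 1.07e-13). Its log2 fold change of 0.99913 stood just under the cut-off of 1, with Ccnd2 (1.13) just above, so its call turns on the scaling. It was past the cut-off with DESeq2, under the 3 other scalings and under the 2 other filters. Cdkn2d, the gene for p19Ink4d and the last member of the INK4 family, rose as well, from 1046 and 1034 to 1587 and 1574 normalized counts (log2 fold change 0.60, adjusted p = 2.62e-08).

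Levels per length allow the members of the family to be compared with each other. They were computed as counts per kilobase of exon, scaled within each library to the same sum over all genes (TPM). The summed level of the 4 INK4 genes was 191 and 188 TPM in wt and 203 in each Top2β-null library. TPM and normalized counts are scaled differently, and the 2 scales part by genotype. Rbl1, for example, had a mean of 26.7 TPM in wt and 28.0 in Top2β-null cells, but 6922 and 6662 normalized counts. The direction of the small difference in the INK4 sum was therefore not settled. Cdkn2a made up 53.2% of the sum in wt and 37.6% in Top2β-null cells, and Cdkn2b 21.1% and 14.1%. The count of Cdkn2a, and so the sum, includes p19Arf, which is not an INK4 protein. The share of Cdkn2c went from 17.7% to 35.9% and that of Cdkn2d from 8.06% to 12.5%. Without division by length, Cdkn2a held 41.0% in wt and 24.5% in Top2β-null cells, and Cdkn2c 31.2% and 53.7%, so that which of the 2 is larger in Top2β-null cells depends on the length. With 2 libraries per group, the exact permutation test of such a share cannot give a p below 0.33, and each of these shares gave that value. Each share per length was non-overlapping between the genotypes, and its replicates differed by at most 1.31 percentage points.

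Around the INK4-ARF locus, some genes showed larger differences than Cdkn2a or Cdkn2b. Within 500 kb, 17 other genes were tested, of which edgeR called 3 higher and 0 lower, beside 5.52% and 5.25% of all genes tested, and all 3 are non-coding. Over the wider window of 1 Mb around Cdkn2a, the median log2 fold change of genes above 100 normalized counts was -0.22, and 24.5% of such windows over all genes had a median as low. Wincr1, a long intergenic non-coding RNA, had 37.3 and 29.9 normalized counts in wt and 2320 and 2487 in Top2β-null cells, a 71.4-fold difference (log2 fold change 6.16, edgeR adjusted p = 1.59e-17). Gm12602 went from 155 and 150 to 1120 and 1146 normalized counts (log2 fold change 2.89), and AL805899.2 from 90.8 and 80.2 to 486 and 469 (2.48). The coding neighbour Mtap, which encodes an enzyme of methionine salvage, fell by 0.22 on the log2 scale, from 24713 and 24760 to 21099 and 21441 normalized counts. Gm12609, a processed transcript next to Cdkn2b, fell by 0.41. Gm26525 dropped by 2.63, from 168 and 171 to 19.7 and 34.7 normalized counts, but its mean lay under the minimum of 100 for a call. The same held for the coding gene Gm13288, with 31.3 and 29.0 normalized counts in wt and 1.04 and 2.97 in Top2β-null cells, the latter at the floor of 3 counts (adjusted p = 1.36e-05). None of the remaining genes of this interval was called.

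The D cyclins shifted in their proportions. Ccnd2 (chr6:127125162-127152193, reverse strand), which encodes cyclin D2, had 28036 and 28369 normalized counts in wt and 61259 and 61824 in Top2β-null cells. The Top2β-null libraries stood well above the wt libraries, and the gene rose 2.18-fold (log2 fold change 1.13, SE 0.026, edgeR adjusted p = 1.59e-15). Ccnd1 (chr7:144929931-144939925, reverse strand), which encodes cyclin D1, a target of growth factor signalling, had 40274 and 39912 normalized counts in wt and 36081 and 37001 in Top2β-null cells. Its groups did not overlap, but the difference was small (log2 fold change -0.13, SE 0.026, edgeR adjusted p = 2.58e-04) and no longer passed when libraries were scaled to the total count (adjusted p = 0.0506). Ccnd3 (chr17:47505051-47599691, forward strand), which encodes cyclin D3, had 9593 and 10173 normalized counts in wt and 7269 and 7453 in Top2β-null cells. Both Top2β-null values were lower, a fall of 1.34-fold (log2 fold change -0.43, SE 0.030, edgeR adjusted p = 3.24e-09).

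Per length, the sum of the 3 D cyclin genes was 294 and 290 TPM in wt and 381 and 382 TPM in Top2β-null cells. Ccnd1 was the main D cyclin of both genotypes, with 67.4% of the sum in wt and 51.3% in Top2β-null cells. Ccnd2 held 23.7% in wt and 43.2% in Top2β-null cells, and Ccnd3 8.91% and 5.54% (each with an exact permutation p of 0.33, the smallest possible). The difference of the Ccnd2 share was 19.5 percentage points, while the replicates differed by 0.234 points in wt and 0.392 points in Top2β-null cells. Without division by length, Ccnd2 held 36.1% and 58.4% of the D cyclin counts and was the largest of the 3 in Top2β-null cells, so the order of Ccnd1 and Ccnd2 there depends on the length.

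**Figure D2:**
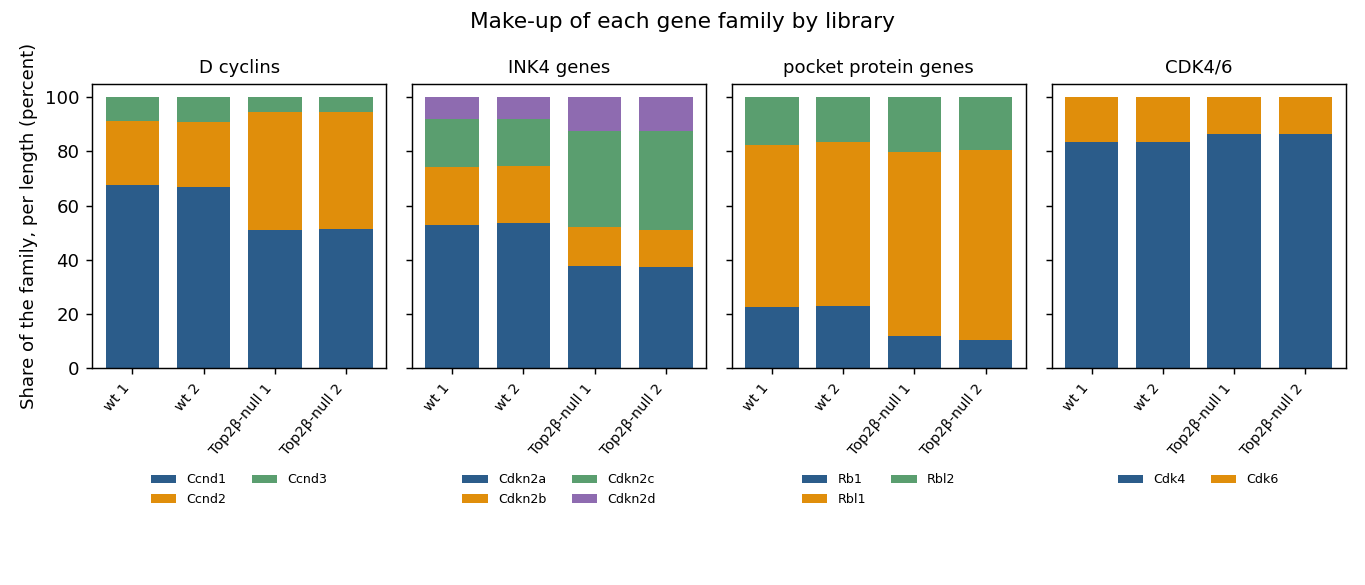
Share of each gene (percent, per length) in the summed level of its family, with 1 stacked bar per library. Ccnd2 widens from 23.7% to 43.2% of the D cyclins and Cdkn2c from 17.7% to 35.9% of the INK4 genes, while Rb1 shrinks from 22.7% to 11.2% of the pocket protein genes.

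Both kinase genes fell, Cdk6 more than Cdk4. Cdk4 (chr10:127063534-127067920, forward strand) had 44359 and 45190 normalized counts in wt and 38812 and 39540 in Top2β-null cells (log2 fold change -0.19, SE 0.026, edgeR adjusted p = 6.67e-06). Cdk6 (chr5:3341485-3531008, forward strand) had 38324 and 38997 in wt and 26382 and 26493 in Top2β-null cells. Each Top2β-null library was below each wt library for both genes, and Cdk6 fell 1.46-fold (log2 fold change -0.55, SE 0.025, edgeR adjusted p = 1.05e-11). Per length, Cdk4 was the larger kinase gene, with 83.3% of the summed level of both in wt and 86.4% in Top2β-null cells. Without division by length, its share was 53.7% and 59.7%. Their sum went from 382 TPM in both wt libraries to 351 and 352 TPM. Since the D cyclin sum was higher, the D cyclin transcripts were fewer than those of Cdk4 and Cdk6 in wt cells and more numerous in Top2β-null cells.

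Among the pocket protein genes, Rb1 fell and Rbl1 did not pass the test. Rb1 (chr14:73183673-73325822, reverse strand), which encodes the retinoblastoma protein, had 2603 and 2650 normalized counts in wt and 1155 and 1009 in Top2β-null cells. The level was 2.43-fold lower in Top2β-null cells (log2 fold change -1.28, SE 0.057, edgeR adjusted p = 7.87e-12), the lowest log2 fold change among the 10 genes. Rbl1 (chr2:157145893-157204534, reverse strand), the p107 gene, is itself a known E2F target. It had 6935 and 6908 normalized counts in wt and 6617 and 6706 in Top2β-null cells. Its libraries did not overlap, but the difference did not pass (log2 fold change -0.06, SE 0.027, edgeR adjusted p = 0.0816), and its sign turned under scaling to the total count (0.01). Rbl2, which encodes p130, the third pocket protein, had 2555 and 2408 against 2489 and 2363 normalized counts, with overlapping groups (adjusted p = 0.556). Per length, Rb1 made up 22.7% of the pocket protein transcripts in wt and 11.2% in Top2β-null cells, Rbl1 60.2% and 68.9%, and Rbl2 17.1% and 19.9%.

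The order of the 10 genes by level per length was Cdk4 (318 TPM), Ccnd1 (197), Cdkn2a (101), Ccnd2 (69.3), Cdk6 (63.8), Cdkn2b (40.0), Cdkn2c (33.4), Rbl1 (26.7), Ccnd3 (26.0) and Rb1 (10.1) in wt cells. In that order, only Rbl1 and Ccnd3 overlapped between neighbours. In Top2β-null cells, it was Cdk4 (304), Ccnd1 (196), Ccnd2 (165), Cdkn2a (76.3), Cdkn2c (72.9), Cdk6 (47.6), Cdkn2b (28.6), Rbl1 (28.0), Ccnd3 (21.1) and Rb1 (4.54), and here only Cdkn2b and Rbl1 overlapped. Cdk4 and Ccnd1 thus led and Rb1 was last in both genotypes, while Ccnd2 moved up past Cdkn2a and Cdkn2c past Cdk6 and Cdkn2b.

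**Figure D3:**
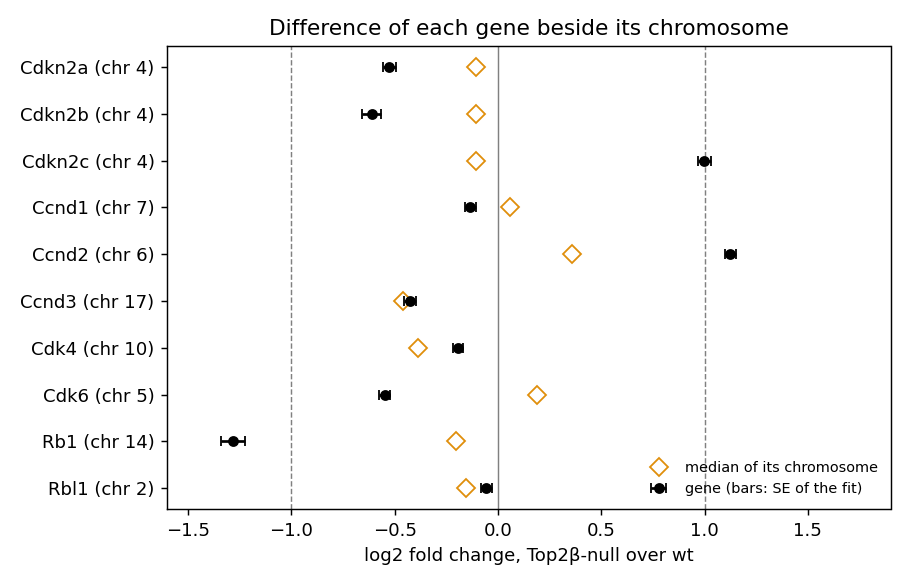
Log2 fold change of each gene (black points, with bars for the SE of the edgeR fit) beside the median log2 fold change of all genes above 100 normalized counts on the same chromosome (orange diamonds), with dashed lines at the cut-offs of -1 and 1. Ccnd3 lies on the median of chromosome 17, whereas Rb1, Ccnd2, Cdkn2c and Cdk6 lie well away from theirs.

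The chromosomes themselves differed between the genotypes, and the genes are therefore set beside the median of their chromosome. This comparison was added after the values had been seen. Over the 20 chromosomes, the median log2 fold change of genes above 100 normalized counts ran from -0.57 to 0.36. The upper end was chromosome 6, which carries Ccnd2, and Ccnd2 lay 0.77 above that median. For Ccnd3 the median of chromosome 17 was -0.46, and the gene lay 0.03 above it, so its fall was no larger than that of its chromosome. Cdk4 lay 0.19 above the median of chromosome 10 (-0.39), and Rbl1 0.10 above that of chromosome 2 (-0.15). Cdk6 lay 0.74 below the median of chromosome 5 (0.19) and Ccnd1 0.19 below that of chromosome 7 (0.06). On chromosome 4 the median was -0.10, with Cdkn2a 0.42 below, Cdkn2b 0.51 below and Cdkn2c 1.10 above it. Rb1 lay 1.08 below the median of chromosome 14 (-0.20). The part of such chromosome-wide shifts in the difference of each gene was not tested.

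Rb1 did not fall alone. Of the nearest tested coding genes that do not overlap it, Itm2b on one side was called lower as well, from 8789 and 8633 to 4128 and 4219 normalized counts (log2 fold change -1.06, edgeR adjusted p = 1.08e-14). Fndc3a on the other side, with the overlapping gene Rcbtb2 between it and Rb1, fell by 0.22 on the log2 scale, from 8154 and 7860 to 7062 and 6721. Within 1 Mb of Rb1, an interval examined after these values had been seen, there were 12 other genes above 100 normalized counts, of which 6 were called lower and 0 higher, with a median log2 fold change of -0.90. Genes that flank or overlap Rb1 within 0.473 Mb (chr14:73123037-73596142) include Rcbtb2, Gm17233, Lpar6, Itm2b, Med4 and Sucla2. These fell together, with log2 fold changes from -1.38 (Lpar6) to -0.74 (Med4). Outside this stretch the values were smaller in size, from -0.40 to 0.46. When the same window was laid around each of the 15927 genes with at least 5 such neighbours, 2.63% had a median as low as that of Rb1. Top2b lies 56.7 Mb away on the same chromosome, where 156 of 908 genes tested (17.2%) were called in either direction, against 10.8% over all genes tested.

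The windows of the other genes were examined in the same way. Around Ccnd3, 31 of 37 genes fell and 2 rose by the adjusted p, with a median log2 fold change of -0.59, and 6.34% of all windows had a median as low. Around Ccnd2, 12 of 14 genes rose and 1 fell, with a median of 0.37, and 7.84% of windows had a median as high. The nearest tested coding genes on either side of Ccnd2, Tigar and Parp11, rose by 0.42 and 0.33 on the log2 scale, less than Ccnd2 itself, whereas more distant genes such as Tspan11 went from 50.5 and 31.9 to 4328 and 4335 normalized counts. The medians around the remaining genes lay between -0.22 and 0.10.

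**Figure D4:**
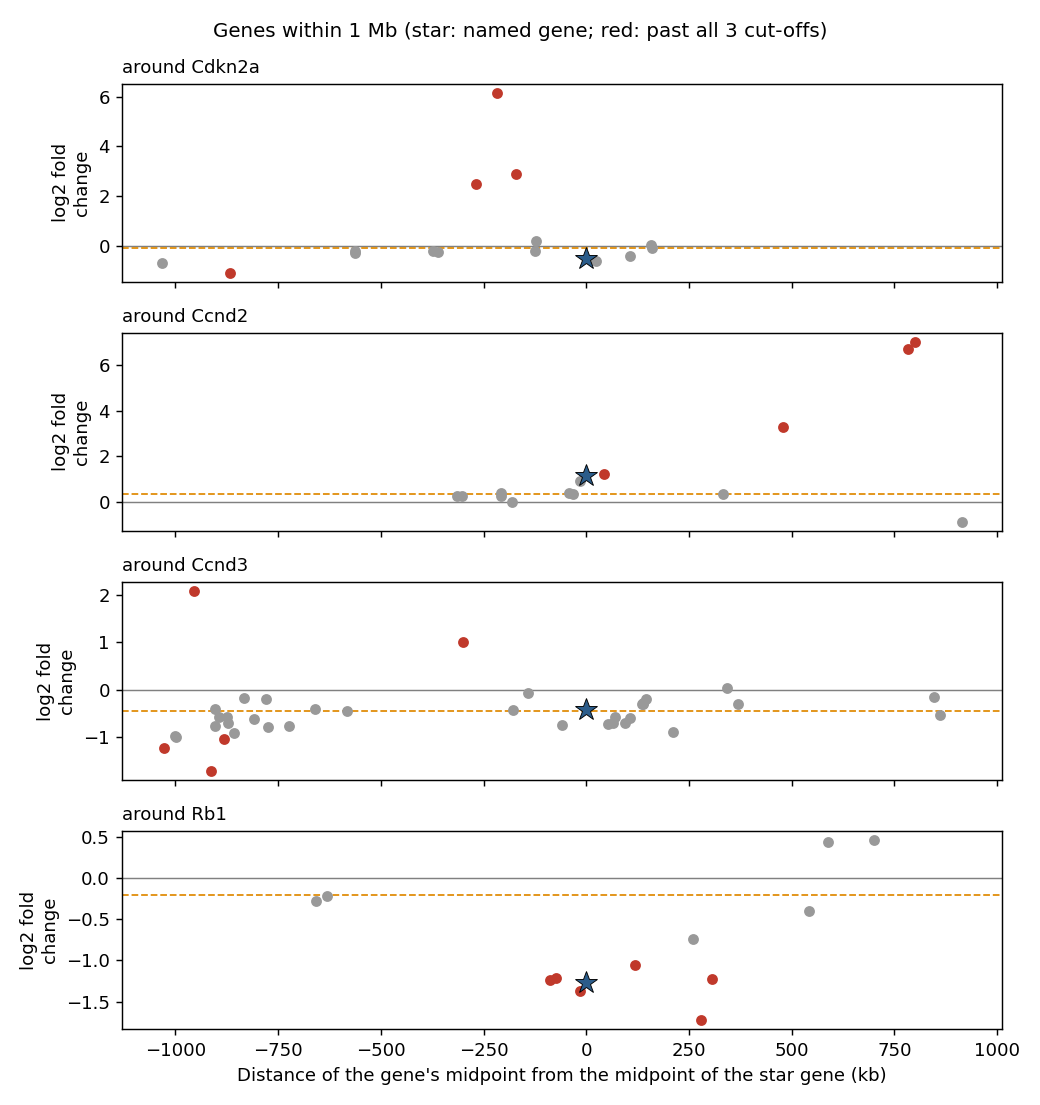
Log2 fold change of each gene above 100 normalized counts within 1 Mb of Cdkn2a, Ccnd2, Ccnd3 and Rb1, by the distance between midpoints (kb), with a blue star for the named gene, red for genes past all 3 cut-offs and a dashed line for the median of the chromosome. The vertical scales differ, and the genes around Rb1 lie below -0.5 over a stretch that ends on both sides.

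Overlapping genes limit some of these counts. The library kit marks the strand, but the sources used here do not state whether counting used it. Rb1 overlaps Rcbtb2 and Lpar6 on the opposite strand, with 383 and 214 identical bases in exons, and both were lower in parallel (3799 and 4094 against 1641 and 1707 normalized counts for Rcbtb2). The span of Rb1 also overlaps Gm17233 on the same strand, which stranded counting would not separate (276 and 309 against 138 and 114 normalized counts). Cdk4 overlaps Tspan31 by 641 bases, Ccnd1 overlaps LTO1 by 818, Ccnd3 overlaps Bysl by 361, Cdk6 overlaps Gm17590 by 320 and Ccnd2 overlaps Gm43126 by 374. Gm43126, antisense to the end of Ccnd2, rose in step with it, from 1273 and 1305 to 2421 and 2529 normalized counts (log2 fold change 0.94). Of pseudogenes and transcripts elsewhere that resemble these genes, Ccnd3-ps had between 53 and 76 counts in a library, and the copies of Cdk4 and Cdk6 had at most 4.

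The other genes of the axis were described by 8 lists of 89 genes, of which 87 were tested, 4 were called higher and 3 lower, 1 of them in 2 lists. Those shares are no greater than the 5.52% and 5.25% of all genes tested. Of the other CDK inhibitors, Cdkn1b, the p27Kip1 gene, was called higher, with 5700 and 5410 normalized counts in wt and 12337 and 12321 in Top2β-null cells (log2 fold change 1.15, edgeR adjusted p = 4.68e-15). It lies on chromosome 6, as does Ccnd2. Cdkn1a, the p21Cip1 gene and a main p53 target, was called lower, with 1164 and 1044 against 386 and 410 normalized counts (log2 fold change -1.47, adjusted p = 3.11e-11).

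In the list of the ARF, MDM2 and p53 axis, 2 of 7 genes were called, both lower, and 5 of 7 fell by the adjusted p (5.25% of genes tested were called lower, and 46.1% of genes above 1000 normalized counts fell). Trp53, which encodes p53, had 57849 and 60438 normalized counts in wt and 10394 and 10530 in Top2β-null cells. That is a 5.65-fold lower level (log2 fold change -2.50, edgeR adjusted p = 5.07e-19), larger in size than that of any of the 10 genes or of Top2b. The other called gene was Cdkn1a, whose mean lay below 1000 normalized counts. Mdm2, whose product degrades p53 and is bound by ARF, fell by 0.38 on the log2 scale, from 7389 and 7187 to 5673 and 5553 normalized counts. Npm1, which encodes a nucleolar partner of ARF, rose by 0.10.

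Among 18 regulators of the INK4-ARF locus, 3 were called higher and 1 lower, beside 5.52% and 5.25% of all genes tested. Tbx3, a T-box factor known to repress the locus, had 446 and 476 normalized counts in wt and 4741 and 5081 in Top2β-null cells (10.6-fold, log2 fold change 3.41, edgeR adjusted p = 1.86e-17). Cbx7, a Polycomb subunit known to bind and silence it, went from 77.7 and 66.7 to 634 and 597 normalized counts (8.53-fold, log2 fold change 3.09, adjusted p = 5.46e-13). Id1, known to restrain the activation of Cdkn2a by ETS factors, rose from 3002 and 2904 to 7223 and 7624 (log2 fold change 1.33). Kdm6b, a demethylase known to remove the Polycomb mark from the locus, was lower, with 14304 and 14671 against 3799 and 3726 normalized counts (3.85-fold, log2 fold change -1.95, adjusted p = 4.72e-18). Ezh2 and Kdm2b, further known repressors, rose without reaching the fold cut-off (0.88 and 0.84 on the log2 scale), and Bmi1 rose by 0.43. Repressors also fell: Tbx2, at a low level, had 42.4 and 21.3 normalized counts in wt and 3.11 and 12.9 in Top2β-null cells (log2 fold change -1.95, adjusted p = 0.00373), Zbtb7a fell by 0.20 on the log2 scale and Hmga2, which acts against the INK4-ARF genes, by 0.13. Of known activators, Ets1 (0.01) and Dmtf1 (0.05) did not pass, and Ets2 rose by 0.18. By the adjusted p, 12 of the 18 rose, 4 fell and 2 did not pass, beside 38.9% that rose and 46.1% that fell among genes above 1000 normalized counts. Tbx2, Cbx7 and Cbx8 had means below 1000 and so lie outside that class, and the list holds both repressors and activators.

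The lists downstream of the pocket proteins held no called gene with edgeR or with DESeq2, although many of their genes passed the adjusted p alone, as did most genes above 1000 normalized counts (38.9% rose and 46.1% fell). Of 20 E2F target genes of DNA synthesis, 8 rose, 7 fell and 5 did not pass, and the median log2 fold change was -0.02, against -0.01 for all genes tested. The extremes were Rfc3, a subunit of the clamp loader (0.87), and Tk1, thymidine kinase (-0.66). Of 12 mitotic genes, 8 rose and 3 fell, with a median of 0.15 and values from -0.47 (Cdc20) to 0.81 (Aurkb). The proliferation marker Mki67 had 76564 and 82448 normalized counts in wt and 88572 and 85687 in Top2β-null cells (log2 fold change 0.13). Of 11 E2F, DP and other pocket protein genes, 5 rose and 5 fell. Of the activators, E2f1 rose (0.20) while E2f2 (-0.86) and E2f3 (-0.09) fell. Of the repressors, E2f4 (0.39), E2f5 (0.12) and E2f8 (0.38) rose, and E2f6 (-0.92) and E2f7 (-0.68) fell. Of the 8 tested genes for cyclin E, cyclin A and CDK partners, 4 rose, 3 fell and 1 did not pass, with a median of 0.10. Their lowest value was -0.45 (Skp2). The highest was that of Ccne1, the cyclin E1 gene and a classic E2F target. It rose by 0.97 on the log2 scale, from 2338 and 2452 to 4705 and 4656 normalized counts, just under the cut-off. The 8 genes of cyclin D assembly, activation and turnover ranged from -0.44 (Mnat1) to 0.26 (Ccnh), and none was called.

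**Figure D5:**
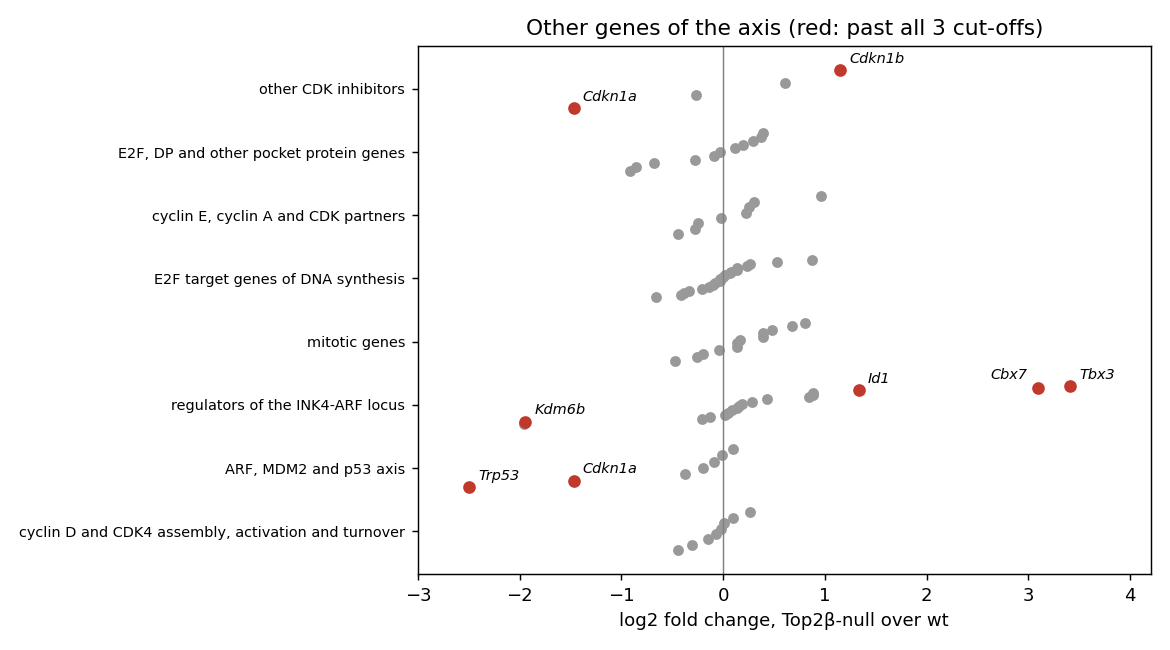
Log2 fold change of each tested gene in the 8 lists, with genes past all 3 cut-offs in red and named. The E2F targets of DNA synthesis scatter around 0 between -0.66 and 0.87, while the regulators of the INK4-ARF locus spread from -1.95 to 3.41.

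The promoters were searched for the letters that E2F and E-box factors such as MYC are known to bind. Windows of 300 bases around RefSeq transcription starts (250 before and 50 after, GRCm38) were at hand for 7 of the 10 genes, in 10 windows. Ccnd1, Ccnd2 and Rb1 had no entry. Both strands were read. The E2F motif, TTTNNCGC with C or G at each N, was held by 2.26% of 32851 windows of the same length over all genes. It was found in the window of Rbl1, which did not pass the test, and in that of the p19Arf start of Cdkn2a, which fell. These sites are shown with their flanks because E2F is the output of the axis, with the motif in capitals.
Rbl1, chr2:157204529-157204568, reverse strand: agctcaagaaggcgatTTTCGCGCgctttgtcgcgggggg
Cdkn2a, p19Arf start, chr4:89294695-89294734, reverse strand: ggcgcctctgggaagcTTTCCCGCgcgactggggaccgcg
The motif begins 18 bases before the RefSeq start site of Rbl1 and 99 bases before that of p19Arf. The RefSeq start of p19Arf differs from the GENCODE start given above (chr4:89294653). The E-box CACGTG, which reads the same on both strands, was held by 7.15% of all windows. It occurred in 1 place each in the windows of Cdkn2c and Cdk6 and in 4 places in that of Cdk4, all upstream of its start. The stretch of Cdk4 that spans the 4 boxes (175 bases, forward strand) is shown for this cluster, with the boxes in capitals.
Cdk4, chr10:127063359-127063533: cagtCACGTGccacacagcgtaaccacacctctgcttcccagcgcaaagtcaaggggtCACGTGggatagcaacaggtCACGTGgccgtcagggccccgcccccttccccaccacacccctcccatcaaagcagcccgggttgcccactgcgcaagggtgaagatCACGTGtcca
Cdkn2c rose while Cdk4 and Cdk6 fell, so genes with an E-box in their window did not move in 1 direction. The AP-1 motif TGANTCA, with C or G at the N, was held by 5.20% of all windows and by none of the 10. A match of letters describes the sequence only.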

How the data were processed

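The labels give 2 wt and 2 Top2β-null MEF libraries of total RNA, and both genome build names, mm10 and GRCm38. The authors trimmed read pairs (Trim Galore!), mapped them to mm10 (STAR, multi-mapping reads retained) and ran TEtranscripts with Gencode genes and a RepeatMasker annotation. What they deposited are raw counts in whole numbers. The strand setting of TEtranscripts and the way it counted reads with several alignments are not given in the sources used here. Of 54842 gene identifiers, 54409 were found in GENCODE release M21, the source of positions, lengths and Cdkn2a transcripts.

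edgeR 4.0.16 in R 4.3.3 was fitted to all features that reached 10 counts in 2 or more libraries (25085 genes and 1481 repeat families), with TMM factors over both, genotype as the only term and Benjamini-Hochberg adjustment over all 26566 features. The SE was taken as the size of the log2 fold change over the square root of F. The cut-offs for calls are those of the study's methods. Replicates were not duplicates of one library, since chi-square per degree of freedom was 3.65 for wt and 5.07 for Top2β-null cells. The fit was tested on simulated data. Alternatives were DESeq2 1.42.0, 3 other scalings, 2 other filters, a block for the replicate number and leaving out each library in turn.

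The 10 genes and the 8 lists were chosen with earlier results of these data known. Named genes were the 10, up to 4 called genes per list, the nearest coding genes beside called ones, the genes within 500 kb of Cdkn2a and Cdkn2b, and Top2b. Further list genes, the 1 Mb windows and the chromosome medians were picked after values had been seen.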

Additional observations from a re-analysis of the deposited data

How the results depend on the processing

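The number of the 10 genes called higher went from 1 to 2 with DESeq2, with upper quartile factors, with scaling to the total count, with TMM over genes alone, without a filter on low counts and with at least 100 counts in every library, because Cdkn2c passed the fold cut-off with log2 fold changes from 1.01 to 1.07. Leaving out each library in turn gave 1 to 2, and 2 only without Top2β-null replicate 1 (Cdkn2c at 1.08, otherwise down to 0.98). The number called lower stayed at 1 in all 11 alternatives. Rbl1 turned to 0.0147 with scaling to the total count, where Itm2b (-0.99) lost and Ccne1 gained its call and Ccnd1 no longer passed (adjusted p = 0.0506). Of 110 alternative values for the 10 genes, 102 kept their direction and call, 7 gained a call (all for Cdkn2c) and 1 reversed. Ccnd2 ranged from 1.10 to 1.20 and Rb1 from -1.34 to -1.17. The median log2 fold change over genes was -0.0058 as reported and at most 0.064, with scaling to the total count.

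Same-numbered libraries did not deviate together (correlation 0.0197 over 17952 features), so the numbers are not shown to pair the libraries. With the replicate block, the calls stayed at 1 higher and 1 lower (Ccnd2 1.13, Rb1 -1.28, Cdkn2c 0.9988). Without division by length, the difference of the Ccnd3 share went from -3.37 to -5.66 percentage points, that of the Cdk4 share from 3.15 to 6.04 and that of the Cdkn2d share from 4.40 to 2.56.

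The 10 genes had between 1019 and 62422 counts in each library, so depth limited none of the 10, whereas the number of libraries limits every test.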
